A study of Mus musculus with 15 samples.

Results

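The 10 genes described here encode cadherins and cytoplasmic proteins of the desmosome: the desmogleins *Dsg1a*, *Dsg1b*, *Dsg2*, *Dsg3* and *Dsg4*, the desmocollins *Dsc1*, *Dsc2* and *Dsc3*, the plakin desmoplakin (*Dsp*) and the armadillo protein plakophilin 1 (*Pkp1*). They were taken by exact match of the gene symbol, and all 10 were found among the 21110 genes of the deposited files. Total RNA of ears from C57BL/6 mice was sequenced for wild type mice and for mice labelled *Socs3* cKO, in which *Socs3* was to be deleted only in cells that use the keratin 5 promoter, that is, keratinocytes. The libraries analysed here came from 4 mice of each genotype at 2 weeks after birth, and from 3 wild type mice and 4 labelled *Socs3* cKO at 10 weeks. No other allele, agent or treatment is named for any group. Expression is given as FPKM, which counts reads relative to transcript length and to the mapped reads of the library, so that levels of different genes can be set side by side.

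Desmosomes hold neighbouring epithelial cells together. Desmogleins and desmocollins bind across the gap between cells, and inside each cell plakoglobin and plakophilins join their tails to desmoplakin, which anchors keratin filaments. In skin, desmoglein 1 and desmocollin 1 are best known from the upper epidermis, desmoglein 3 and desmocollin 3 from its lower layers, desmoglein 2 and desmocollin 2 from simple epithelia and the hair follicle, and desmoglein 4 from the hair follicle, where its loss gives fragile hair.

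The labels name the tissue as ear and the source as keratinocytes, and the RNA was extracted from ear samples. The summed FPKM of 5 basal keratinocyte markers was 4555 to 7812 in the 15 mice, but fibroblast, muscle and leukocyte markers were also well above 0 and differed between genotypes (their sums are given with those of the epidermal markers), so each value is a mean over several cell types. In such RNA, fewer cells of a type and less RNA per cell cannot be told apart. The targeted gene did not follow its label in every mouse: *Socs3* stood at 9.71, 10.2, 10.3 and 10.3 FPKM in the 2 week wild type and at 1.25, 9.32, 12.6 and 3.51 FPKM in the 2 week *Socs3* cKO, and at 10 weeks it was 2.02 to 4.81 FPKM in wild type mice, against 29.8 to 47.7 FPKM in the *Socs3* cKO. Groups are therefore called by their labels only, and the directions given below are those between labelled groups. The 10 week wild type libraries listed 1414 to 3176 genes at 0, against 4044 to 4423 in the other 12. The level of long genes (at least 5386.5 exonic bases) against short ones (at most 2167 bases), as a median log2 deviation from the mean of all mice, was 0.32 to 0.51 in the 2 week wild type, -0.71 to 0.41 in the 2 week *Socs3* cKO, -0.87 to -0.20 in the 10 week wild type and -0.32 to 0.34 in the 10 week *Socs3* cKO. The part of this length trend in the results below was not tested beyond a fit in which it was removed. The depth behind each value is unknown.

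In the 2 week wild type, the genes for plaque proteins and the main epidermal cadherins stood highest. *Pkp1* led with 251 ± 12.1 FPKM (SD, n = 4), followed by *Dsp* (184 ± 17.9), *Dsc3* (113 ± 9.76) and *Dsg1a* (79.5 ± 5.95), and the ranges of these 4 genes did not overlap. Below them came *Dsc1* (19.8 ± 5.39 FPKM), *Dsg3* (14.9 ± 3.1), *Dsg1b* (13.1 ± 3.91), *Dsg2* (7.83 ± 0.983), *Dsg4* (7.14 ± 1.69) and *Dsc2* (5.98 ± 0.815), and each of these 6 overlapped its neighbour in that order. In the other 3 groups the same 4 genes again held the top 4 places, with overlapping ranges among them, and *Dsg4* was last. In the 2 week *Socs3* cKO the order began with *Dsc3* (300 ± 51.7 FPKM) and *Dsg1a* (238 ± 28.1), and *Dsc1*, *Dsg1b* and *Dsg3* were separated from each other and from *Dsg2*.

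**Figure D1:**
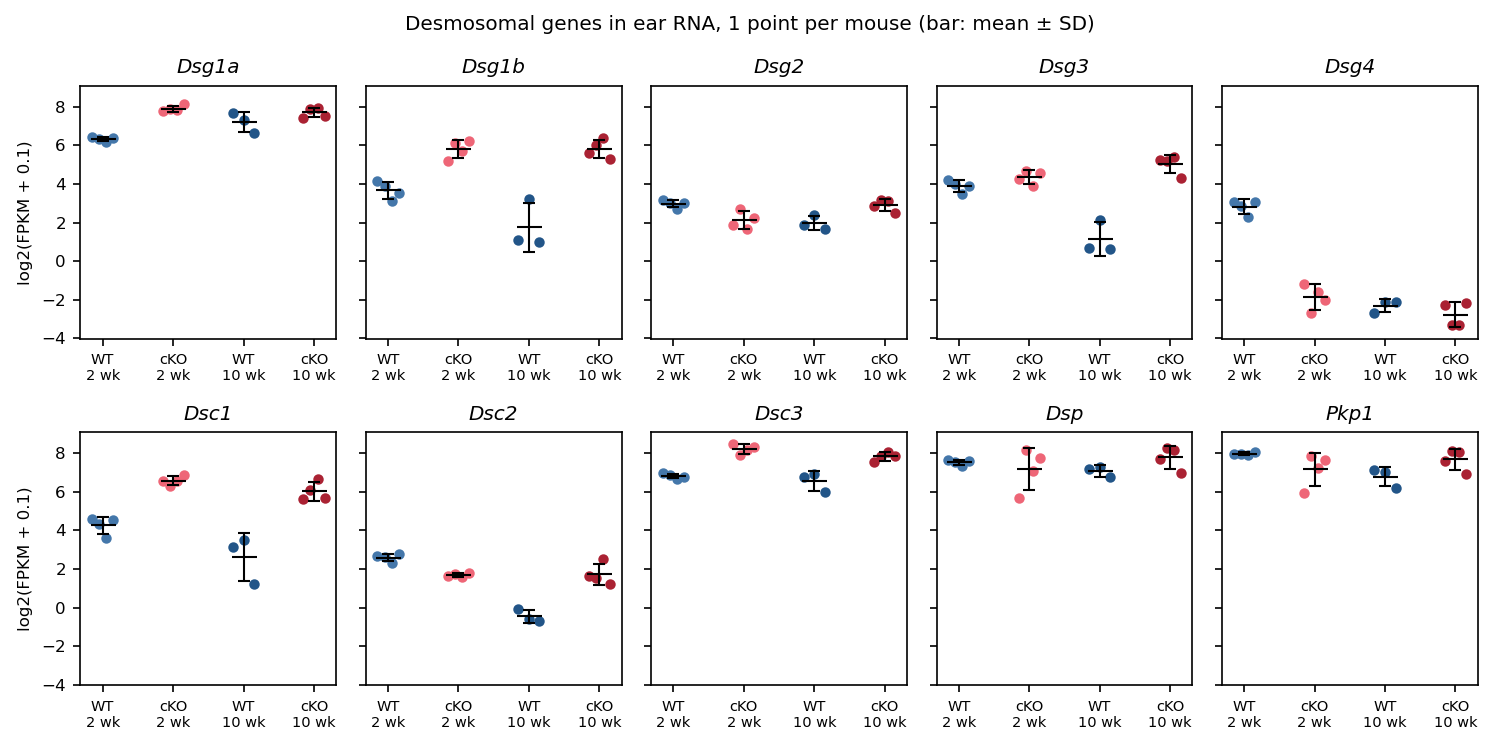
Level of each of the 10 genes in each mouse, as log2(FPKM + 0.1) on the vertical axis, with 1 panel per gene and the 4 groups on the horizontal axis (WT is wild type, cKO is *Socs3* cKO). Points are mice and bars are the group mean ± SD. *Dsg4* is high only in the 4 wild type mice at 2 weeks. Every gene other than *Dsg1a* and *Dsg4* has its lowest group mean in the wild type at 10 weeks. Only for *Dsg3*, *Dsc1* and *Dsc2* do these mice lie below all other mice.

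At 2 weeks the epidermal cadherins *Dsg1a*, *Dsg1b*, *Dsc1* and *Dsc3* were up-regulated in mice labelled *Socs3* cKO, and the hair-type *Dsg4* was down-regulated. Genes were called at an adjusted p below 0.01 and a |log2(FC)| of at least 1 in limma, with the adjustment over all genes tested. Of the 10 members, all of which could be tested, 4 were called higher and 1 lower, and in the background of 13524 tested genes 14.4% were called, 7.24% higher and 7.19% lower. *Dsg4* passed the filter on low values only through the wild type mice, so its direction was fixed by the filter. Between the 2 genotypes the ranges did not overlap for 8 members, with the *Socs3* cKO on top in 4 and below in 4 (*Dsg2*, *Dsg4*, *Dsc2* and *Pkp1*), and over all tested genes these shares were 22.9% and 33.2%. The median log2(FC) of the members was 0.04, and that of all tested genes was -0.21. With the 2 week *Socs3* cKO mice 2 and 3 left out, which had *Socs3* at 9.32 and 12.6 FPKM, 5 members were still called.

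At 10 weeks the increase took in *Dsg3* and *Dsc2*, while *Dsg1a* no longer passed. Of the 9 members tested (*Dsg4* was under 1 FPKM in every mouse and was not tested), 5 were called higher and 0 lower, namely *Dsg1b*, *Dsg3*, *Dsc1*, *Dsc2* and *Dsc3*. In the background of 13105 genes 14.9% were called, 12.5% higher and 2.43% lower. *Dsc2* passed the filter only through the *Socs3* cKO mice, so its direction was fixed in the same way. With ranges that did not overlap, the *Socs3* cKO was on top in these 5 genes and in *Dsg2*, against 31.2% of all genes, and below in no tested member, against 11.1%. The median log2(FC) was 1.28 over the members and 0.31 over all genes. Without wild type mouse 3 the number of members called fell to 3, and scaling to the mean log2 level of *Krt5*, *Krt14*, *Krt1* and *Krt10* (keratin scaling), which shifted the median of all genes by -0.80, also left 3 members.

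**Figure D2:**
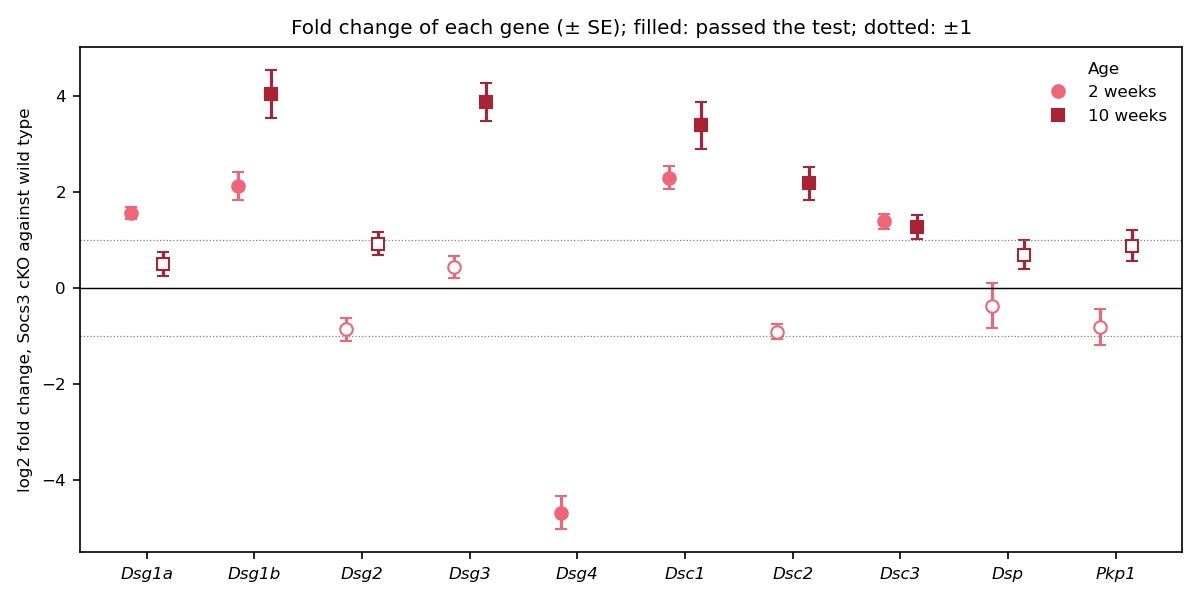
log2 fold change of *Socs3* cKO against wild type with its standard error (vertical axis) for each gene (horizontal axis), as circles at 2 weeks and squares at 10 weeks; filled symbols passed the test and dotted lines mark a log2 fold change of 1 in either direction. *Dsg4*, shown at 2 weeks only, lies at -4.68, and *Dsg1b*, *Dsg3* and *Dsc1* lie between 3.39 and 4.05 at 10 weeks.

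*Dsg4*, the desmoglein of the hair shaft, was the member with the widest difference at 2 weeks. Wild type mice had 8.32, 7.08, 4.77 and 8.39 FPKM, against 0.348, 0.0554, 0.236 and 0.149 FPKM in the *Socs3* cKO. The groups did not overlap, and the highest *Socs3* cKO mouse was far under the lowest wild type mouse. The log2(FC) was -4.68 (SE 0.35, adjusted p = 8.2e-05), which on this scale is 25.6-fold, and the exact permutation test gave p = 0.0286, the smallest that 4 mice against 4 allow. Since *Dsg4* passed the filter only through the wild type mice, neither p-value tests its direction. The *Socs3* cKO values lie near the 0.1 that is added to each FPKM, so the size of the fold change depends on it. *Dsg4* was near 0 in both genotypes at 10 weeks, with 0.0556, 0.13 and 0.131 FPKM in wild type mice, against 0.111, 0, 0 and 0.12 FPKM in the *Socs3* cKO. The groups overlapped at that age, and the difference in mean log2(FPKM + 0.1) was -0.46 (exact permutation test, p = 0.286). In the wild type *Dsg4* fell between the ages, with a log2 difference of -5.13 (SE 0.41, adjusted p = 6.61e-07). In that fit too it passed the filter only through the 2 week wild type mice, so this direction was fixed by the filter.

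The 2 week difference was wider in *Dsg4* than in the other 9 members, of which *Dsg2*, *Dsc2* and *Pkp1* were also lower in the *Socs3* cKO without overlap. The log2 level of *Dsg4* minus their median was -1.45 ± 0.07 (SD, n = 4) in the 2 week wild type and -8.21 ± 1.0 (SD, n = 4) in the *Socs3* cKO. The difference of these means was -6.76, and it was -4.78 with 1 in place of 0.1 added to the FPKM. In a fit of each gene relative to *Dsg4* in the same mouse, all 9 differed from *Dsg4* in their fold change, by 3.77 (SE 0.44, adjusted p = 3.25e-06) for *Dsc2* to 6.98 (SE 0.42, adjusted p = 9.25e-08) for *Dsc1*. In that fit 97.5% of all 13523 genes passed, so the distance from *Dsg4* was not particular to the desmosomal members. *Dsg4* itself passed the filter only through the wild type mice, so the fit does not test the direction of this distance. The same fit could not be made at 10 weeks.

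Markers of the hair follicle moved with *Dsg4*. The summed FPKM of 8 hair shaft markers (of the 9 listed, *Krt85* had no value under that symbol) was 534 to 848 in the 2 week wild type, 3.9 to 8.41 in the 2 week *Socs3* cKO, 2.68 to 3.48 in the 10 week wild type and 3.03 to 11.8 in the 10 week *Socs3* cKO. All 8 were called lower at 2 weeks, as were all 6 inner root sheath markers with values. The sum of the latter was 2230 to 3300 FPKM in 2 week wild type mice, against 7.03 to 64.2 FPKM in the *Socs3* cKO. Of the hair shaft markers, *Krt81* and *Krt86* passed the filter only through the wild type mice. *Krt31*, *Krt34* and *Krt83* had 1 *Socs3* cKO mouse at or above 1 FPKM, and *Krt35* and the sheath marker *Krt73* had 2. These too would not have passed without the wild type mice, so the filter favoured this direction. Of all genes, 7.19% were called lower at that age. Among the markers of the hair shaft, *Krt31* and *Krt83* were at 0 in at least 1 mouse of each genotype at 10 weeks. Their part in the *Dsg4* result was not tested. *Dsg4* lies in the cadherin cluster between *Dsg1b* and *Dsg3*, at chr18:20594676-20630322 on the plus strand of mm9, and at 2 weeks neither neighbour was called lower.

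**Figure D3:**
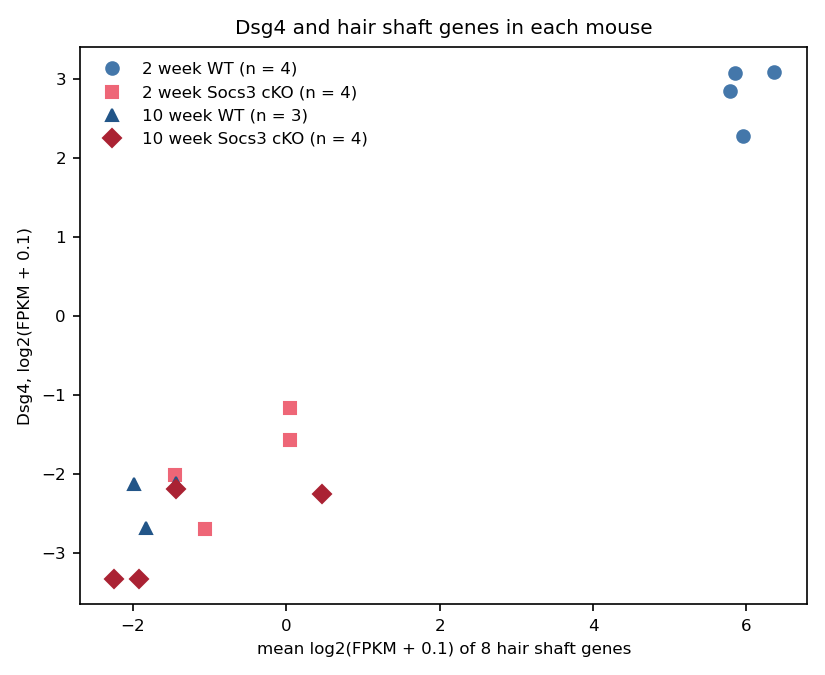
*Dsg4* as log2(FPKM + 0.1) on the vertical axis against the mean log2(FPKM + 0.1) of 8 hair shaft genes on the horizontal axis, 1 point per mouse, with a symbol for each of the 4 groups. The 4 wild type mice at 2 weeks stand alone at the upper right, and the other 11 mice lie together at the lower left.

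The genes *Dsg1a* and *Dsg1b* both encode forms of desmoglein 1, the cadherin of the upper epidermis. *Dsg1a*, at chr18:20469312-20501851, was 85, 79.7, 71.2 and 82.3 FPKM in 2 week wild type mice, against 215, 232, 225 and 278 FPKM in the *Socs3* cKO. These groups were well apart, with a log2(FC) of 1.57 (SE 0.13, adjusted p = 0.000125). At 10 weeks *Dsg1a* was 200, 157 and 99.6 FPKM in wild type mice, against 173, 234, 246 and 185 FPKM in the *Socs3* cKO. The groups overlapped, since wild type mouse 1 was above 2 of the *Socs3* cKO mice, and the log2(FC) of 0.50 (SE 0.25, adjusted p = 0.141) turned to -0.30 with keratin scaling and to -0.02 with the length trend removed.

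*Dsg1b* behaved otherwise at 10 weeks. It lies at chr18:20535230-20568697 and was 17.7, 14.7, 8.7 and 11.3 FPKM in 2 week wild type mice, against 36.3, 69.8, 51.3 and 75.5 FPKM in the *Socs3* cKO (log2(FC) 2.14, SE 0.29, adjusted p = 0.00123). At 10 weeks it was only 2.01, 9.24 and 1.87 FPKM in wild type mice, against 47.5, 64.2, 81.7 and 39.6 FPKM in the *Socs3* cKO. Wild type mouse 2 was above its 2 group mates and still far under every *Socs3* cKO mouse, and the log2(FC) was 4.05 (SE 0.50, adjusted p = 0.000603). At 10 weeks the 3 wild type mice had ratios of *Dsg1a* to *Dsg1b* of 99.4, 17.0 and 53.1, and this ratio lay between 3.01 and 8.19 in the other 12 mice. Whether the fold changes of these 2 genes differed from each other was not tested.

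The values of the desmoglein 1 genes are less certain than the others. Of the 50-base words in their longest coding transcripts, 35.0% of those in *Dsg1a* and 48.4% of those in *Dsg1b* also occur in a transcript of another desmoglein 1 gene, so single reads of 50 bases from there could have been split among them. *Dsg1c*, the other gene of this set and not a member, had 2.82 to 6.9 FPKM in 2 week wild type mice, against 15.9 to 36.8 FPKM in the *Socs3* cKO. At 10 weeks it had 0.834 to 3.64 FPKM in wild type mice, against 19.5 to 35.6 FPKM in the *Socs3* cKO. Its log2(FC) was 2.49 (SE 0.34, adjusted p = 0.00123) at 2 weeks and 4.03 (SE 0.45, adjusted p = 0.000365) at 10 weeks, near the values of *Dsg1b* at both ages.

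*Dsg3*, the desmoglein of the lower epidermis (chr18:20668805-20705360), was 18.3, 15.9, 10.9 and 14.6 FPKM in 2 week wild type mice, against 18.9, 25.4, 14.5 and 23.5 FPKM in the *Socs3* cKO. The groups overlapped, and the log2(FC) was 0.45 (SE 0.23, adjusted p = 0.123). At 10 weeks it was 1.48, 4.29 and 1.47 FPKM in wild type mice, against 38.2, 36.0, 41.3 and 19.8 FPKM in the *Socs3* cKO. Here the lowest *Socs3* cKO value exceeded the highest wild type one, with a log2(FC) of 3.88 (SE 0.39, adjusted p = 0.000227). The 3 wild type mice at 10 weeks were under all 4 at 2 weeks, while 3 of the 4 *Socs3* cKO mice at 10 weeks were above all mice at 2 weeks.

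*Dsg2*, the desmoglein of simple epithelia (chr18:20716575-20763022), did not pass at either age, and its values had opposite signs. Reads of an antisense transcript that overlaps its end, *Gm16090*, cannot be told apart from its own. It was 8.88, 8.07, 6.51 and 7.88 FPKM in 2 week wild type mice, against 3.62, 6.48, 3.12 and 4.53 FPKM in the *Socs3* cKO, where the highest *Socs3* cKO mouse came close to the lowest wild type mouse. The log2(FC) of -0.85 (SE 0.24, adjusted p = 0.0209) did not pass, although without *Socs3* cKO mouse 2 it did (-1.05, adjusted p = 0.00284). At 10 weeks *Dsg2* was 3.52, 5.15 and 3.09 FPKM in wild type mice, against 7.19, 8.75, 8.67 and 5.51 FPKM in the *Socs3* cKO. The log2(FC) of 0.93 (SE 0.25, adjusted p = 0.0168) did not pass, but it did without wild type mouse 2 (1.14, adjusted p = 0.00621) or without *Socs3* cKO mouse 4 (1.07, adjusted p = 0.00865).

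Among the desmocollins, *Dsc1*, the form of the upper epidermis (chr18:20243204-20273274), had the largest 2 week increase of all members. It was 24.0, 19.7, 12.3 and 23.4 FPKM in 2 week wild type mice, against 93.2, 78.7, 95.4 and 118 FPKM in the *Socs3* cKO (log2(FC) 2.31, SE 0.23, adjusted p = 0.000298). At 10 weeks it was 8.6, 11.4 and 2.22 FPKM in wild type mice, against 48.6, 68.7, 102 and 51.0 FPKM in the *Socs3* cKO (log2(FC) 3.39, SE 0.49, adjusted p = 0.00129). The groups were apart at both ages, and only the fit with no filter on low values ended the 10 week call (adjusted p = 0.0138).

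*Dsc3*, the most abundant desmocollin (chr18:20119431-20160598), is best known from the lower epidermis. It was 125, 117, 102 and 108 FPKM in 2 week wild type mice, against 355, 235, 285 and 324 FPKM in the *Socs3* cKO, with a log2(FC) of 1.39 (SE 0.16, adjusted p = 0.000494). At 10 weeks it was 108, 121 and 62.6 FPKM in wild type mice, against 186, 234, 268 and 230 FPKM in the *Socs3* cKO, with a log2(FC) of 1.28 (SE 0.25, adjusted p = 0.00434). The groups did not overlap at either age. The 2 week call was lost with quantile normalization (0.99) and with keratin scaling (adjusted p = 0.0334). The 10 week call was lost on omission of any of 4 of the 7 mice (wild type mouse 1 or 3, *Socs3* cKO mouse 2 or 3, adjusted p from 0.0115 to 0.0137), with no filter on low values (0.0192), with keratin scaling (0.48, adjusted p = 0.503) and with the length trend removed (0.79, adjusted p = 0.0140).

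*Dsc2* (chr18:20189134-20218055), the widely expressed desmocollin, was lower in the *Socs3* cKO at 2 weeks by less than the fold threshold and was up-regulated at 10 weeks. It was 6.22, 5.96, 4.89 and 6.84 FPKM in 2 week wild type mice, against 3.01, 3.21, 2.9 and 3.41 FPKM in the *Socs3* cKO, with no overlap. The log2(FC) was -0.90 (SE 0.16, adjusted p = 0.00383). At 10 weeks *Dsc2* was 0.85, 0.571 and 0.51 FPKM in wild type mice, against 3.02, 2.81, 5.61 and 2.24 FPKM in the *Socs3* cKO, again with no overlap. The log2(FC) was 2.19 (SE 0.34, adjusted p = 0.00171), a call that was lost without wild type mouse 3 (2.06, adjusted p = 0.0107), with no filter (adjusted p = 0.0107) and with keratin scaling (1.39, adjusted p = 0.0607).

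The plaque genes did not pass at either age. *Dsp*, which ties keratin filaments to the plaque (chr13:38243197-38290446), was 201, 187, 159 and 191 FPKM in 2 week wild type mice, against 50.5, 286, 136 and 211 FPKM in the *Socs3* cKO. *Pkp1*, which clusters desmosomal proteins at the plaque (chr1:137767972-137815784), was 250, 248, 238 and 267 FPKM in 2 week wild type mice, against 61.2, 235, 151 and 196 FPKM in the *Socs3* cKO. Both were lowest in *Socs3* cKO mouse 1, which also had the lowest long-gene level of its group (-0.71). The log2(FC) was -0.36 (SE 0.47, adjusted p = 0.529) for *Dsp* and -0.80 (SE 0.38, adjusted p = 0.103) for *Pkp1*, and without that mouse the values were 0.13 for *Dsp* and -0.39 for *Pkp1*. Without *Socs3* cKO mouse 2 *Dsp* had -0.70, and *Pkp1* had -1.04, and neither passed in these fits. At 10 weeks *Dsp* was 146, 156 and 107 FPKM in wild type mice, against 208, 310, 286 and 125 FPKM in the *Socs3* cKO. The groups overlapped through *Socs3* cKO mouse 4, with a log2(FC) of 0.70 (SE 0.31, adjusted p = 0.0965) that was -0.10 with keratin scaling and -0.02 with the length trend removed. *Pkp1* at 10 weeks was 138, 131 and 74.3 FPKM in wild type mice, against 193, 279, 262 and 122 FPKM in the *Socs3* cKO, with a log2(FC) of 0.88 (SE 0.32, adjusted p = 0.0544).

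The genotype difference itself differed between the ages for 5 of the 10 members at an adjusted p below 0.01, against 25.6% of all 13937 genes in that fit (18.5% higher and 7.05% lower). The difference of the 2 log2(FC) values, 10 weeks minus 2 weeks, was 4.21 for *Dsg4* (SE 0.56, adjusted p = 0.000126), 3.43 for *Dsg3* (SE 0.49, adjusted p = 0.000215), 3.09 for *Dsc2* (SE 0.37, adjusted p = 5.68e-05), 1.78 for *Dsg2* (SE 0.35, adjusted p = 0.00174) and -1.07 for *Dsg1a* (SE 0.29, adjusted p = 0.0089). The median of this difference over all genes was 0.55. The value of *Dsg4* was set by its 2 week difference, since both genotypes were near 0 at 10 weeks, and it is no evidence of a genotype effect at that age. *Dsg4* passed the filter of this fit only through the 2 week wild type mice. The direction of its value was therefore fixed by the filter, and its p-value does not test that direction. Without *Dsg4*, 4 of 9 members passed. The *Dsg4* call was lost with a pseudocount of 0.01 (3.70, adjusted p = 0.0279), and the *Dsg2* call with quantile normalization (0.92, adjusted p = 0.0133) and with the length trend removed (0.73, adjusted p = 0.0225). The *Dsg1a* call was lost on omission of any of 12 of the 15 mice, and with keratin scaling, which shifted the median of all genes by -1.03, no member passed. *Dsg1b*, *Dsc1*, *Dsc3*, *Dsp* and *Pkp1* did not pass (1.91, 1.09, -0.11, 1.07 and 1.69), although *Dsg1b* did without 10 week wild type mouse 2 (2.65, adjusted p = 0.000778) and *Pkp1* did without 2 week *Socs3* cKO mouse 2 (1.92, adjusted p = 0.00798) or 10 week *Socs3* cKO mouse 4 (1.93, adjusted p = 0.00939).

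In the wild type, 6 of the 10 members fell from 2 to 10 weeks and 0 rose, against a background of 25.5% called among all genes, 19.4% lower and 6.18% higher. The log2 differences of those called were -5.13 for *Dsg4*, -3.05 for *Dsc2*, -2.74 for *Dsg3*, -1.91 for *Dsg1b*, -1.65 for *Dsc1* and -1.01 for *Dsg2*, and the median over all genes was -0.44. Those of *Dsg4*, *Dsc2* and *Dsg3* passed under every alternative tried, while those of *Dsg1b*, *Dsc1* and *Dsg2* were lost with quantile normalization, with keratin scaling, with the length trend removed and on omission of any of 4 or 5 of the 7 mice. *Dsg4* passed the filter of this fit only through the 2 week wild type, so its fall was fixed by the filter. *Dsg1a* had a log2 difference of 0.88 (SE 0.21, adjusted p = 0.00383), under the fold threshold. It was called higher at 10 weeks with median-of-ratios scaling (1.27), with keratin scaling (1.80, adjusted p = 0.00308), with the length trend removed (1.63) and without 10 week wild type mouse 3 (1.16, adjusted p = 0.000592). In mice labelled *Socs3* cKO, 0 of the 10 members were called between the ages by limma, against 3.54% of all genes (2.01% higher and 1.53% lower), and 2 members had an unadjusted p below 0.05, as had 26.4% of all genes. The 2 comparisons at different ages and the 2 comparisons of ages use the same mice, and so their values are not independent.

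The make-up of each cadherin family, taken over its members only, shifted with these values. *Dsg1c*, not a member, is left out of the desmoglein sums. Its mean was 4.77 FPKM in the 2 week wild type, 26.9 in the 2 week *Socs3* cKO, 1.80 in the 10 week wild type and 25.8 in the 10 week *Socs3* cKO. *Dsg1a* made up 65.2 ± 3.56% (SD, n = 4) of the summed desmoglein FPKM in the 2 week wild type, 74.3 ± 3.93% in the 2 week *Socs3* cKO, 93.2 ± 3.68% (n = 3) in the 10 week wild type and 68.1 ± 4.22% in the 10 week *Socs3* cKO. *Dsg4* held 5.77 ± 0.861% in the 2 week wild type and at most 0.127% in any mouse of the other 3 groups. *Dsg3* held 12.1 ± 1.13% in the 2 week wild type, 6.39 ± 1.14% in the 2 week *Socs3* cKO, 1.51 ± 0.872% in the 10 week wild type and 10.9 ± 2.66% in the 10 week *Socs3* cKO. The family sum was 123 ± 15 FPKM in the 2 week wild type, 321 ± 47.6 in the 2 week *Socs3* cKO, 163 ± 51.6 in the 10 week wild type and 309 ± 61.0 in the 10 week *Socs3* cKO.

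*Dsc3* was the main desmocollin in every mouse, at 81.6 ± 3.16% of the summed desmocollin FPKM in the 2 week wild type, 75 ± 2.56% in the 2 week *Socs3* cKO, 92.9 ± 2.54% in the 10 week wild type and 76.9 ± 4.10% in the 10 week *Socs3* cKO. The rest was mostly *Dsc1*, at 14.1 ± 2.88%, 24.2 ± 2.49%, 6.41 ± 2.68% and 22.0 ± 3.84% in the same order. *Dsc2* was at most 4.96% in any mouse. In both families the 10 week wild type had the highest share of a single gene. The share of *Dsc1* in single *Socs3* cKO mice lay within 20.7% to 26.5% at the younger age, a range inside that of the older mice, 18.0% to 27.1%.

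**Figure D4:**
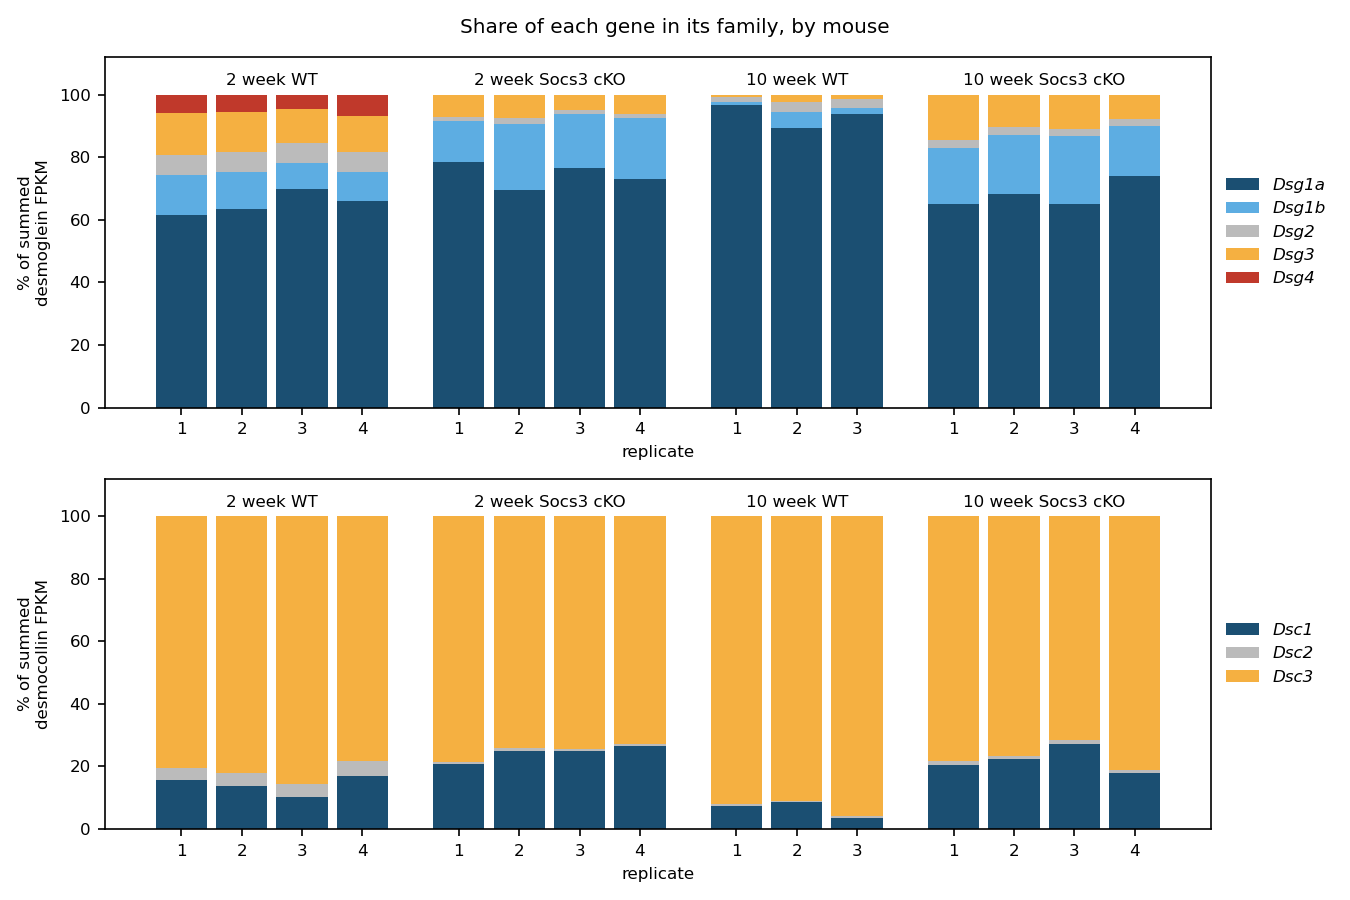
Share of each gene in the summed FPKM of the desmogleins (upper panel) and desmocollins (lower panel), as a percentage on the vertical axis, with 1 stacked bar per mouse numbered by replicate within each group. The desmogleins shown are the members only, without *Dsg1c*. *Dsg4* is visible only in the 2 week wild type, and *Dsg1a* and *Dsc3* reach their highest shares, 89.3% to 96.6% and 91.0% to 95.8%, in the 3 wild type mice at 10 weeks.

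The epidermal marker lists did not move as one. At 2 weeks the summed FPKM of 6 suprabasal keratinocyte markers was 6311 to 7785 in wild type mice, against 10157 to 13421 FPKM in the *Socs3* cKO, without overlap. Of the 6, *Krtdap* (log2(FC) 2.04) and *Flg2* (1.65) were called higher, while *Krt1* had -0.99 (adjusted p = 0.181), *Krt10* -0.54 (adjusted p = 0.499) and *Lor*, which encodes loricrin, -0.997 (adjusted p = 0.0792). At 10 weeks the sums were 7460 to 15166 and 7446 to 9468, and *Lor* was called lower (-2.62). The 5 basal markers had 5350 to 5631 and 5392 to 7812 FPKM at 2 weeks, and 4555 to 5767 and 6043 to 7343 FPKM at 10 weeks.

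Markers of other cell types also differed between the genotypes. For the counts that follow, 7.24% of all genes were called higher and 7.19% lower at 2 weeks. At 2 weeks the summed FPKM of 5 fibroblast markers was 12650 to 14843 in wild type mice, against 5090 to 7072 in the *Socs3* cKO, with 3 called lower and 1 higher. The 5 skeletal muscle markers had 602 to 916 and 1418 to 2802 FPKM (3 called higher), the 5 sebaceous gland markers 401 to 434 and 1055 to 1931 FPKM (3 called higher), and the 4 cartilage markers 145 to 247 and 13.3 to 85.3 FPKM (1 called lower). None of these sums overlapped between the genotypes. The sums of the 4 leukocyte markers, 165 to 199 and 252 to 607 FPKM, and of the 3 endothelial markers, 48.1 to 54.8 and 34.7 to 42.4 FPKM, did not overlap either. In both lists limma called 0 genes, and 4 and 1 had an unadjusted p below 0.05, as had 58.0% of all genes. The log2(FC) was 1.17 for *Lyz2*, 0.84 for *Ptprc* and 0.37 for *Cd68*, but -0.82 for *Itgam*. Among the endothelial markers it was -1.65 for *Cdh5*, -0.42 for *Kdr* and -0.07 for *Pecam1*, and the last 2 overlapped between the genotypes.

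At 10 weeks the leukocyte markers had 226 to 386 FPKM in wild type mice, against 526 to 938 in the *Socs3* cKO (3 of 4 called higher), the endothelial markers 9.31 to 12.6 and 26.0 to 35.1 FPKM (3 of 3 called higher), and the adipocyte markers 23.1 to 43.2 and 43.6 to 96.8 FPKM (1 of 4 called higher). The adipocyte marker called, *Lep*, passed the filter only through the *Socs3* cKO mice, so its direction was fixed by the filter. *Kdr* (endothelial) had 1 wild type mouse at or above 1 FPKM and *Itgam* (leukocyte) had 2, and these too would not have passed without the *Socs3* cKO mice. The muscle markers were lower, with 669 to 1143 and 333 to 612 FPKM (1 of 5 called lower), and the fibroblast sums overlapped (3849 to 6801 and 6773 to 11784 FPKM). Over all genes 12.5% were called higher and 2.43% lower at that age. The part of all these markers, epidermal or other, in the changes of the desmosomal genes was not tested.

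Of 9 other desmosome genes, 2 were called higher at 2 weeks and 0 lower: *Dsg1c*, and *Perp*, a tetraspan protein of the desmosome (log2(FC) 1.06, SE 0.14, adjusted p = 0.00113). Over all genes 7.24% were called higher and 7.19% lower. The median of the list was -0.62, against -0.21 for all genes. *Jup*, which encodes plakoglobin, had -1.09 (SE 0.56, adjusted p = 0.128), and *Pkp2* had -0.98 (SE 0.19, adjusted p = 0.00527), just under the fold threshold. *Pkp2* passed the filter on low values only through the wild type mice, so its direction was fixed by the filter. At 10 weeks 1 of 8 tested, *Dsg1c*, was called higher, against 12.5% of all genes, and the list's median was 0.66 against 0.31. Its other 7 tested genes did not pass at that age. *Dsg1c* then had 1 wild type mouse at or above 1 FPKM, and would not have passed the filter without the *Socs3* cKO mice.

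Adherens junctions, the cadherin contacts linked to actin, had 0 of 8 genes called at 2 weeks by limma, where 6 had an unadjusted p below 0.05, as had 58.0% of all genes, and the median log2(FC) was -0.82, against -0.21 for all genes. At 10 weeks 5 of the 8 were called higher, against 12.5% of all genes. They were *Cdh1* (E-cadherin, log2(FC) 2.16), *Cdh3* (P-cadherin, 1.69), *Ctnnd1* (p120 catenin, 1.29), *Pvrl4* (nectin 4, 1.41) and *Vcl* (vinculin, 1.31). The ranges of *Cdh1* overlapped between the genotypes (exact permutation test, p = 0.114). Of the hemidesmosome genes, which fix basal cells to the basement membrane, 5 of 6 had values and 0 were called at 2 weeks, with 1 at an unadjusted p below 0.05. At 10 weeks 2 were called higher, *Itga6* (integrin alpha 6, 3.34) and *Dst* (dystonin, 2.03), against the same 12.5% of all genes.

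The genes whose level followed a member most closely over the 15 mice were taken by Pearson's r of log2(FPKM + 0.1) among 13937 genes with at least 1 FPKM in at least 3 mice. The mice fall into 4 groups that share age and genotype, so these values describe the data and carry no test. For *Dsg4* they were *Gabrp* (0.992), *Krtap3-1* (0.984), *Slc5a5* (0.984), *Gm11938* (0.984) and *Krt81* (0.983), of which *Krtap3-1* and *Krt81* encode proteins of the hair shaft. *Gabrp*, a GABA receptor subunit, ranged from 14.1 to 17.7 FPKM in the 2 week wild type and from 0.301 to 0.807 FPKM in the 2 week *Socs3* cKO. For *Dsg1a* the genes were *Cyp2b10* (0.975), *Abhd5* (0.971), *Chl1* (0.969), *Mal2* (0.968) and *Med14* (0.967). For *Dsc2* they were *Morc4* (0.966), *Tiam2* (0.952), *Krt6a* (0.947), *Stx5a* (0.946) and *Ero1l* (0.942). For *Dsp* they were *Tex2* (0.976), *6430548M08Rik* (0.970), *Ankrd35* (0.968), *Rbm12* (0.956) and *Fat2* (0.954). *Krt6a*, a keratin of the follicle and of activated epidermis, was 257 to 287 FPKM in the 2 week wild type, 90.1 to 181 in the 2 week *Socs3* cKO, 13.6 to 37.7 in the 10 week wild type and 111 to 576 in the 10 week *Socs3* cKO.

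Among the members themselves, r was highest for *Dsc1* with *Dsc3* (0.956) and *Dsg1b* with *Dsc1* (0.952), followed by *Dsg1b* with *Dsg3* (0.922) and *Dsp* with *Pkp1* (0.888). It was lowest for *Dsg1a* with *Dsg4* (-0.858). The ratio of *Dsp* to *Pkp1* lay between 0.667 and 1.44 in all 15 mice, although each gene alone ranged several-fold. It was lowest in the 2 week wild type, at 0.667 to 0.803, against 0.825 to 1.44 in all other mice. Desmoglein 3 against desmoglein 4, neighbours on the chromosome, gave a ratio of *Dsg3* to *Dsg4* between 1.74 and 2.28 in the 2 week wild type and between 54.3 and 458 in the 2 week *Socs3* cKO.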

How the data were processed

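Ear RNA of 15 mice was sequenced by the authors as single reads of 50 bases from a library kit that does not mark strand. Reads were aligned to mm9 with TopHat2 (2.1.0 in the submitters' processing notes, which also name Cufflinks), and the authors deposited 1 FPKM value per gene, normalized for gene length and mapped reads. Depth, and thus counting error, is unknown. Groups came from the labels. That the samples are separate mice was taken from the study, and p-values measure the spread between them.

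Values were analysed as log2(FPKM + 0.1) with limma 3.58.1 (R 4.3.3), in which the prior variance followed a trend with expression, on genes with FPKM of at least 1 in at least 3 fitted samples. Tests were 2-sided with Benjamini-Hochberg adjustment over all tested genes. The interaction and age contrasts used all 4 groups, and the interaction had no fold threshold. Fold changes on this scale understate changes of low genes. Fold changes relative to *Dsg4* were fitted with a constant prior variance. Single genes were also compared by exact permutation tests (scipy 1.17.1), whose smallest p is 0.0286 at 2 weeks and 0.0571 at 10 weeks. Python 3.11.15, numpy 2.4.6, pandas 2.3.3 and matplotlib 3.10.9 were used. Positions and lengths came from GENCODE vM1 on NCBIM37 (mm9), matched by symbol for 20533 genes. Tested on simulated data for the 2 week comparison (13474 genes), limma recovered 66 of 104 genes changed by 2 on the log2 scale and 86 of 96 changed by 4, and for the 10 week comparison (12681 genes) 80 of 97 and 101 of 103. Unchanged genes called numbered 1 at 2 weeks and 0 at 10 weeks. The simulated noise was independent between genes, and few genes were changed, all of them expressed in the wild type. Recovery and false calls in the real data may therefore differ.

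Named genes were the 10 members, *Socs3*, genes of the junction lists (those called and up to 3 others), markers by count and sum, and the 5 genes most like *Dsg4*, *Dsg1a*, *Dsc2* and *Dsp*. The members and lists were chosen with earlier results of these data known. The alternatives were pseudocounts of 1 and 0.01, no filter, a strict filter (all samples of 1 group at or above 1), scaling by median-of-ratios, quantiles or 4 keratins, a constant prior variance, a replicate block, all 4 groups in one fit and leaving out each mouse. Removal of the length trend and a fit without *Socs3* cKO mice 2 and 3 at 2 weeks were chosen after seeing the data.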

Additional observations from a re-analysis of the deposited data

Results flagged for a closer look

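The effect of the *Socs3* cKO label differed between 2 and 10 weeks in *Dsg3*, *Dsc2*, *Dsg2* and *Dsg1a*, 4 of 9 desmosomal genes, by the interaction term in limma, and *Dsg4* passed the same test. Over all genes 25.6% passed it. The log2(FC) at 10 weeks minus that at 2 weeks was 4.21 for *Dsg4*, 3.43 for *Dsg3*, 3.09 for *Dsc2*, 1.78 for *Dsg2* and -1.07 for *Dsg1a*, and its median over all genes was 0.55. For *Dsg4* the value was set by the 2 week mice, since *Dsg4* was under 0.2 FPKM in every mouse at 10 weeks, and the call was lost with a pseudocount of 0.01. *Dsg4* also passed the filter only through the 2 week wild type mice, so its direction was fixed by the filter. The *Dsg2* call was lost with quantile normalization and with the length trend removed. That of *Dsg1a* was lost on omission of any of 12 of the 15 mice, and with keratin scaling no member passed. In *Dsc2* and *Dsg2* all *Socs3* cKO mice were below the wild type at 2 weeks and above it at 10 weeks. In 30 sets of 4 mice (10 genes in 3 groups) no mouse was past Dixon's critical value of 0.829. The 10 week wild type, with 3 mice, was not tested in this way, and there mouse 2 had *Dsg1b* at 9.24 FPKM against 2.01 and 1.87, and *Dsg3* at 4.29 FPKM against 1.48 and 1.47.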

How the results depend on the processing

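Depth is not known, and 3 or 4 mice per group limit the precision. Of 1060 values of single genes under an alternative, 957 kept their direction and their side of the threshold, 65 lost a call, 11 gained one and 27 reversed. The causes were not tested unless the alternative's construction shows them. *Dsg4* minus the median of the other members changed by -6.76 at 2 weeks, by -4.78 with a pseudocount of 1 and by -7.22 to -6.50 on leaving out a mouse.

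Members called at 10 weeks went from 5 to 2 with no filter (more genes tested) and 3 with keratin scaling, those of the interaction from 5 to 3 with quantile normalization and 0 with keratin scaling, and those of the wild type between 10 and 2 weeks from 6 to 3 with quantile normalization. Leaving out 1 mouse gave 5 to 6 members at 2 weeks, 3 (without wild type mouse 3) to 6 at 10 weeks, 4 to 6 for the interaction and 3 (without 2 week wild type mouse 1 or 2, or 10 week wild type mouse 1) to 6 for the wild type between ages. All genes called at 2 weeks numbered 1951, and 751 with the replicate block, 3300 with all 4 groups in one fit and 859 (without wild type mouse 2) to 3348 (without *Socs3* cKO mouse 2) on leaving out a mouse. At 10 weeks they numbered 1957, and 1131 with no filter, 1175 with keratin scaling and 745 (without wild type mouse 3) to 2665 (without wild type mouse 2). The interaction gave 3566, and 552 with keratin scaling and 1994 (without 10 week wild type mouse 1) to 5117 (without 2 week *Socs3* cKO mouse 2). The wild type between ages gave 3559, and 1810 with keratin scaling and 2205 to 3826 on leaving out a mouse. The *Socs3* cKO between ages gave 493, and 137 with keratin scaling and 300.0 to 700.0 on leaving out a mouse.

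Reversed values lay in genes that were not called. *Dsp* at 2 weeks was 0.029 with the length trend removed and -0.70 to 0.13 on leaving out a mouse, where 0.13 is the value without *Socs3* cKO mouse 1. With keratin scaling and with the length trend removed, *Dsg1a* at 10 weeks was -0.30 and -0.024, and *Dsp* at 10 weeks -0.10 and -0.017. In the interaction *Dsc3* was 0.16 with quantile normalization and -0.40 to 0.074 on leaving out a mouse (0.074 without 10 week wild type mouse 2), and *Dsp* -0.013 with the length trend removed. In the wild type between ages *Dsc3* was 0.13 with median-of-ratios scaling, 0.66 with keratin scaling, 0.46 with the length trend removed and -0.45 to 0.024 on leaving out a mouse (0.024 without 10 week wild type mouse 3), and *Dsp* 0.48 and 0.39 with keratin scaling and the length trend removed. In the *Socs3* cKO between ages, with median-of-ratios scaling, keratin scaling and the length trend removed, *Dsg1b* was -0.076, -0.10 and -0.14 and *Dsc2* -0.034, -0.060 and -0.16, and *Dsc2* was -0.15 with quantile normalization. Leaving out a mouse gave -0.21 to 0.17 for *Dsg1b* (below 0 without 2 week mouse 1 or 3 or 10 week mouse 2 or 3) and -0.22 to 0.21 for *Dsc2* (below 0 without 10 week mouse 3).

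Same-numbered mice did not deviate together (correlation -0.04 to 0.14 at 2 weeks and -0.21 to 0.07 at 10 weeks), so the labels' numbers were not taken as pairs. With the replicate block 5 members were called at 2 weeks and 4 at 10 weeks, where *Dsc3* had an adjusted p just above the threshold, and all 9 members differed from *Dsg4*. The comparison relative to *Dsg4* at 10 weeks was not run, since *Dsg4* did not pass the filter.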
